A study of Mus musculus with 10 samples.

Results

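The genes described here carry zinc and manganese across membranes, bind them inside the cell, or sense them. They are 10 genes picked by name: the exporters of the Slc30 family Slc30a10, Slc30a1 and Slc30a2, the importers of the Slc39 family Slc39a4, Slc39a5, Slc39a14 and Slc39a8, the metallothioneins Mt1 and Mt2, and Mtf1, which encodes the metal-sensing transcription factor. All 10 were found among the 54838 genes listed for each library, and all 10 passed the filter on low counts that left 14719 genes to be tested. Jejunal crypts of 5 WT animals and 5 Arid3a cKO animals were profiled by RNA sequencing, each library from a single mouse, to ask how loss of the transcription factor ARID3A changes gene expression in the intestinal epithelium. The cKO mice carried VillinCre-ERT2 and floxed Arid3a alleles, so that tamoxifen deletes Arid3a in Villin-expressing epithelial cells only. Mice of both genotypes received tamoxifen for 3 days and were killed 1 month after the first injection, and the villi were scraped away before the crypts were released. The labels call the controls WT and do not say whether they carried the Cre, and the animal names fall in a series of their own for each genotype, so colony or litter and genotype cannot be told apart.

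Zinc homeostasis in the intestine rests on transporters that face opposite ways. Slc39 proteins (ZIP transporters) bring zinc, manganese and some iron into the cytosol, while Slc30 proteins (ZnT transporters) move zinc or manganese out of the cytosol, either across the plasma membrane or into vesicles. Metallothioneins are small cysteine-rich proteins that bind surplus zinc and copper, and when zinc rises MTF1 binds metal response elements in the promoters of Mt1, Mt2 and Slc30a1. Slc30a10 is the main manganese exporter of enterocytes and hepatocytes and has been described as a target of the enterocyte transcription factor HNF4.

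The windows upstream of the transcription starts of Slc30a10, Mt1 and Mt2 are shown because Slc30a10 had the largest genotype difference of the 10 genes and because Mt1 and Mt2 are the textbook targets of MTF1. They were read 5′ to 3′ on the plus strand from RefSeq promoters of build GRCm38.p6. They lie at chr1:185454598-185454847 for Slc30a10, chr8:94178839-94179081 for Mt1 and chr8:94172368-94172617 for Mt2. The Mt1 window stops 7 bases before the RefSeq start, where the gene begins in the GENCODE annotation of GRCm38. For Mt2 the GENCODE gene begins 46 bases after the RefSeq start. Capitals mark matches to the core of the metal response element, TGCGCNC or TGCACNC on either strand.
Slc30a10: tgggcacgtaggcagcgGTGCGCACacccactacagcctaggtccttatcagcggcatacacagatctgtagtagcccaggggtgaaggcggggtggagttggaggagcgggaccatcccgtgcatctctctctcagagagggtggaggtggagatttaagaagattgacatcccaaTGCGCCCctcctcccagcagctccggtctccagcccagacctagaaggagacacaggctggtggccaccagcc
Mt1: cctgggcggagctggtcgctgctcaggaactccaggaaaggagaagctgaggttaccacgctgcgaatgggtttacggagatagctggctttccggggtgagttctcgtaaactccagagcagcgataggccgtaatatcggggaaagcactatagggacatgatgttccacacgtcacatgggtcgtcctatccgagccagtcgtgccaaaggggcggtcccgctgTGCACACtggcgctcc
Mt2: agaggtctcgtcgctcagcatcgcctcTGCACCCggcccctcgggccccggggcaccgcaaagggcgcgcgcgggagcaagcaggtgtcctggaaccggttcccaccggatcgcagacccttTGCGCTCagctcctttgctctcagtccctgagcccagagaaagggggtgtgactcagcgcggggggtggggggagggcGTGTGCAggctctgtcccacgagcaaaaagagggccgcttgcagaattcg
The Slc30a10 window held 3 matches, of which a pair, 1 on each strand, overlaps in the palindrome between 233 and 226 bases before the start, while the remaining match lies 73 to 67 bases before it. The Mt1 window held 1 match, 23 to 17 bases before the RefSeq start. For Mt1, which has 3 annotated transcripts, only the window before this start was searched, so elements elsewhere are not counted. In the Mt2 window the 3 matches did not overlap. Of 32851 RefSeq promoters with the same 250-base window, 21.4% held at least 1 match and 1.26% at least 3. Entries existed for 8 of the 10 genes, with 10 windows in all. Slc30a2 had 2 matches, Slc30a1 had 1, Slc39a5 and Slc39a8 had 1 in one of their windows each, and Mtf1 had 0. The windows of Slc30a2 and Mtf1, and 1 each of Slc39a5 and Slc39a8, lie inside the genes as GENCODE annotates them. Slc39a4 and Slc39a14 had no entry in the table used. The letters CAAAGTCCA, CAAAGTTCA and CAAAGGTCA of the HNF4 motif were found on either strand in 1.14% of all promoters. The 10 windows had 0 matches to them. A match describes letters and does not show a bound site, and the lack of a match says only that these letters are not in these windows.

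Crypts from Arid3a cKO animals contained more mRNA of 6 of the 10 genes. The exporters Slc30a10, Slc30a1 and Slc30a2 and the importers Slc39a4, Slc39a5 and Slc39a14 rose, with log2 fold changes from 0.31 for Slc39a5 to 2.41 for Slc30a10. Slc39a8, Mt1, Mt2 and Mtf1 did not pass the test. Genotype was tested with the quasi-likelihood test of edgeR, with Benjamini-Hochberg adjustment over all 14719 genes, and a gene is said to have risen or fallen where the adjusted p was under 0.05. Across all genes 28.3% passed, 15.6% higher and 12.7% lower in cKO, against 60.0% of the metal genes, all in the higher direction. The 10 genes were chosen with earlier results of these data known, so these shares describe them and do not test them as a set. By edgeR 0 of the 10 genes fell, by the unadjusted p 1 was lower (Slc39a8), by DESeq2 1 was lower (Slc39a8) and by limma-voom 0. The median log2 fold change of the 10 genes was 0.34, against -0.03 for all genes tested, and 9 of the 10 had a positive sign. Levels are given as CPM, the counts of a gene scaled to a common library size, with library sizes normalized by the trimmed mean of M values (TMM) wherever genotypes are compared. The groups did not overlap in CPM for 4 of the 10 genes, all higher in cKO, whereas 19.6% of all genes tested had groups that did not overlap in either direction. In bulk RNA, fewer cells of a type and less RNA per cell cannot be told apart.

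**Figure D1:**
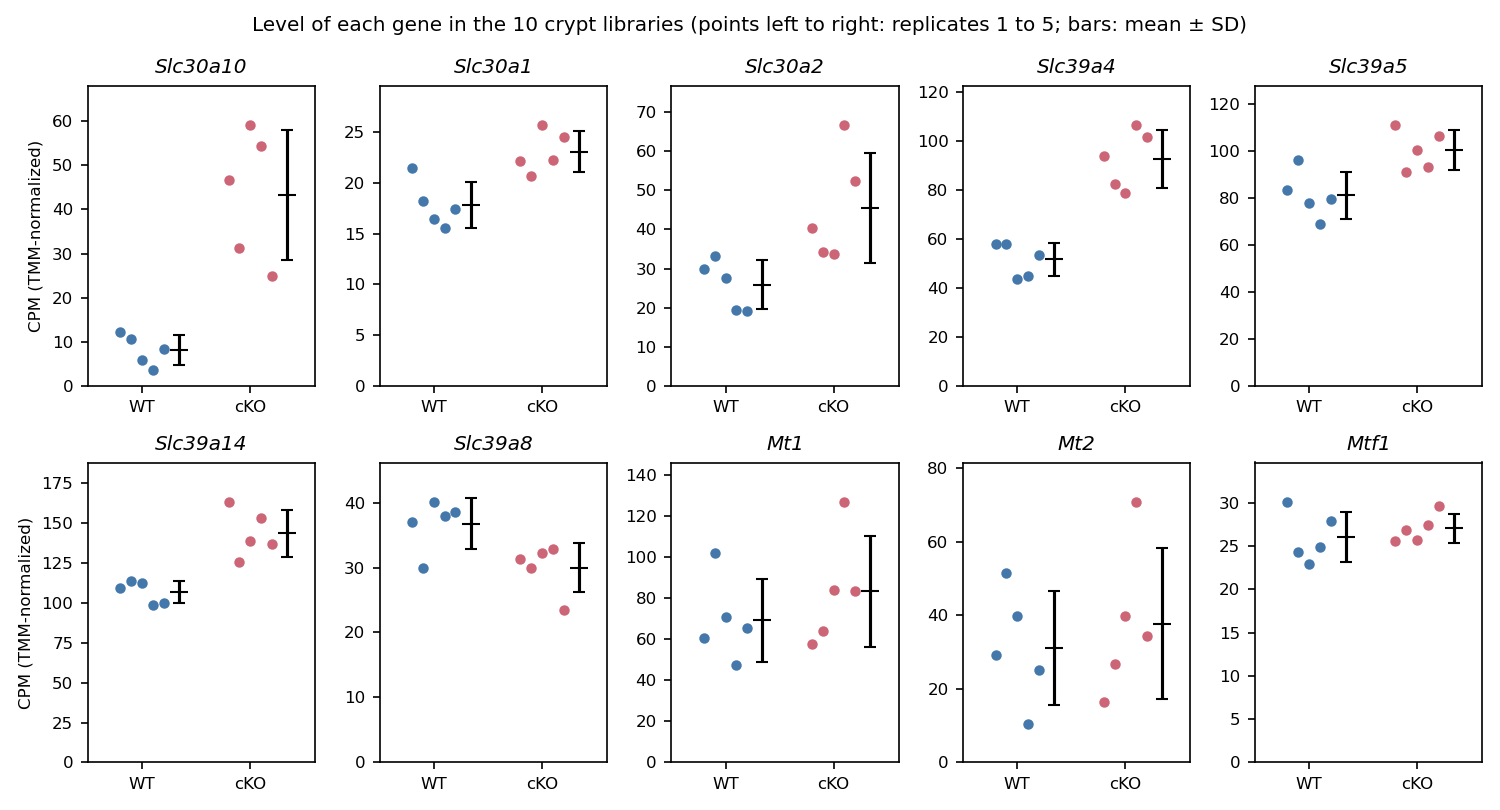
Level of each of the 10 genes in every library, in TMM-normalized CPM on linear axes that start at 0, with points for replicates 1 to 5 of WT (blue) and cKO (red) and bars for mean ± SD over 5 animals. Slc30a10, Slc30a2, Slc39a4 and Slc39a14 had every cKO animal above every WT animal, while the points of Mt1, Mt2 and Mtf1 intermingle.

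Arid3a itself fell in the cKO libraries, from 2.42 ± 0.40 CPM in WT to 0.673 ± 0.35 CPM in cKO (SD, n = 5 each), with a log2 fold change of -1.84 ± 0.32 (SE) and an edgeR adjusted p of 0.00204. Library totals ran from 27050455 to 28152743 expected counts in WT and from 28314069 to 31053622 in cKO, so every cKO library was deeper than every WT library. TMM factors ran the other way, from 1.00 to 1.08 in WT and from 0.934 to 0.986 in cKO. Scaling by library size alone moved the median log2 fold change of all genes from -0.03 to -0.16 and the split of calls from 2298 higher and 1869 lower genes to 1541 higher and 4030 lower, and tests on deposited TPM (log2 of TPM + 1) gave 1420 higher and 2733 lower. The tissue label was checked against marker genes, first those of epithelium as a whole, which do not separate crypt from villus. All 5 markers of epithelium (Epcam, Vil1, Cdh1, Krt8 and Krt19) were detected, with summed levels per gene length, in deposited TPM, of 4021 to 4467 in WT and 4133 to 4914 in cKO. Paneth cell markers fell for 7 of 8 genes, from 56763 to 81432 summed TPM in WT to 32017 to 44714 in cKO. Markers of stem and transit amplifying cells fell for 4 of 7 genes, and 12.7% of all genes were lower in cKO. Markers of mature enterocytes rose for 10 of 10 genes, against 15.6% of all genes. Their summed TPM was 1540 to 7895 in WT and 7929 to 15524 in cKO. These markers are given beside the metal genes further on.

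Slc30a10, the manganese exporter, had the largest difference of the 10 genes. Its level was 12.3, 10.6, 5.84, 3.62 and 8.36 CPM in WT replicates 1 to 5 and 46.7, 31.2, 59.1, 54.3 and 25.0 CPM in cKO replicates 1 to 5. The lowest cKO animal was above the highest WT animal, and both groups spread widely, with WT replicate 4 and cKO replicate 5 at the bottom of their groups. The means were 8.13 ± 3.49 CPM in WT and 43.3 ± 14.7 CPM in cKO (SD, n = 5 each), 5.32 times higher in cKO. The log2 fold change was 2.41 ± 0.36 (SE), with an edgeR adjusted p of 0.00206. Of the 2298 genes that rose, 25 had a larger log2 fold change than Slc30a10. Leaving out any 1 animal gave values between 2.23 and 2.61, each past the threshold. Slc30a10 lies on the plus strand of chr1:185454848-185468762 (GRCm38) and overlaps Gm2061, annotated as a long noncoding RNA on the opposite strand. The estimated counts of Gm2061 ran from 5.13 to 28.6 in WT libraries and from 30.4 to 140 in cKO libraries, against 108 to 352 and 660 to 1690 for Slc30a10. The strand setting of the counting is not given in the sources used here, so reads of the pair could have been divided between them.

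Slc30a1 encodes the zinc exporter of the plasma membrane and is itself a target of MTF1. It lay at 21.5, 18.2, 16.5, 15.5 and 17.5 CPM in WT replicates 1 to 5 and at 22.2, 20.7, 25.7, 22.3 and 24.5 CPM in cKO replicates 1 to 5. The groups overlapped through WT replicate 1, the highest WT animal, which exceeded cKO replicate 2, while the other 4 cKO animals were above all WT animals. Slc30a1 rose from 17.8 ± 2.28 to 23.1 ± 1.997 CPM (SD, n = 5 each). The log2 fold change was 0.37 ± 0.10 with an edgeR adjusted p of 0.0144. The call was lost when libraries were scaled by size alone (0.24, edgeR adjusted p = 0.069) and in limma on TPM (0.24 with a pseudocount of 1, adjusted p = 0.103). The gene lies on the plus strand of chr1:191906767-191913247 and overlaps the antisense gene 1700034H15Rik, which held 12.4 to 33.3 counts in WT libraries and 10.3 to 15.4 in cKO libraries.

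Slc30a2 encodes a transporter that loads zinc into secretory vesicles and has been studied in Paneth cell granules and in the mammary gland. Its level was 30.0, 33.3, 27.6, 19.5 and 19.2 CPM in WT replicates 1 to 5 and 40.4, 34.3, 33.6, 66.7 and 52.3 CPM in cKO replicates 1 to 5. The groups were apart only narrowly, with WT replicate 2 just under cKO replicate 3, and cKO replicates 4 and 5 stood highest. Slc30a2 rose from 25.9 ± 6.33 to 45.5 ± 14.0 CPM (SD, n = 5 each), with a log2 fold change of 0.81 ± 0.23 and an edgeR adjusted p of 0.0227. Leaving out any 1 animal gave log2 fold changes between 0.63 and 0.92, and some of these fits narrowly missed the threshold. Without WT replicate 4 the log2 fold change was 0.72 (edgeR adjusted p = 0.0531), without WT replicate 5 it was 0.74 (0.0526) and without cKO replicate 5 it was 0.75 (0.0553). Without a filter on low counts the edgeR adjusted p was 0.0718. Slc30a2 lies on the plus strand of chr4:134343181-134354484 and overlaps no annotated gene. Summed Paneth markers moved in the opposite direction, as given above.

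Slc39a4 encodes the apical importer of dietary zinc, whose loss causes acrodermatitis enteropathica in humans. It was at 58.0, 57.9, 43.7, 45.1 and 53.6 CPM in WT replicates 1 to 5 and at 94.2, 82.5, 78.8, 107 and 102 CPM in cKO replicates 1 to 5. Every cKO animal was well above every WT animal, and cKO replicates 4 and 5 were the highest. Slc39a4 rose from 51.7 ± 6.86 to 92.8 ± 12.0 CPM (SD, n = 5 each), with a log2 fold change of 0.84 ± 0.11 and an edgeR adjusted p of 7.02e-04, the smallest among the 10 genes. The value stayed past the threshold without any 1 animal, between 0.79 and 0.90.

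The transcripts counted for Slc39a4 also differed in length. RSEM, the tool that made the counts, reports an effective length, the abundance-weighted length of a gene's transcripts after a correction for fragment size. For Slc39a4 it was 1797, 1772, 1823, 1664 and 1724 bases in WT replicates 1 to 5 and 1854, 1872, 1897, 1862 and 1893 bases in cKO replicates 1 to 5. Every cKO value was above every WT value, as the level was. Slc39a4 was the only gene of the 10 whose effective lengths did not overlap between the groups by more than 1 base, and 2.81% of all genes tested had such lengths. With the effective length as an offset the log2 fold change of Slc39a4 was 0.76, with an edgeR adjusted p of 0.00139. The gene, on the minus strand of chr15:76612383-76617384, has 4 annotated transcripts, and which of them differed was not tested.

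Slc39a5 encodes a zinc importer of the basolateral membrane, which faces the blood. Its level was 83.3, 96.1, 77.8, 68.9 and 79.6 CPM in WT replicates 1 to 5 and 111, 90.8, 101, 93.1 and 106.5 CPM in cKO replicates 1 to 5. The groups overlapped, since WT replicate 2 exceeded cKO replicates 2 and 4. Slc39a5 rose from 81.1 ± 9.89 to 100.4 ± 8.58 CPM (SD, n = 5 each), with a log2 fold change of 0.31 ± 0.09 and an edgeR adjusted p of 0.0234. The adjusted p exceeded the threshold without WT replicate 3 (0.0522), without WT replicate 4 (0.0533), without cKO replicate 1 (0.0613) and without cKO replicate 5 (0.0671), at log2 fold changes of 0.29, 0.25, 0.27 and 0.28. It did so as well with scaling by library size alone (0.18, edgeR adjusted p = 0.116). Slc39a5, on the minus strand of chr10:128395931-128401229, overlaps the coding gene Ankrd52 on the opposite strand, whose counts ran from 1809 to 2671 in WT and from 1448 to 1910 in cKO.

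Slc39a14 and Slc39a8 encode related importers that carry manganese, zinc and iron. Slc39a14 lay at 109, 114, 113, 98.7 and 99.9 CPM in WT replicates 1 to 5 and at 163, 126, 139, 153 and 137 CPM in cKO replicates 1 to 5. The groups did not overlap in CPM. Slc39a14 rose from 107 ± 7.05 to 144 ± 14.8 CPM (SD, n = 5 each), with a log2 fold change of 0.43 ± 0.08 and an edgeR adjusted p of 0.00296. In TPM the groups did overlap, and limma on log2(TPM + 1) gave 0.29 with an adjusted p of 0.0538. The gene spans chr14:70303469-70351425 on the minus strand. The sign of Slc39a8 was the opposite. It was at 36.9, 30.0, 40.1, 38.0 and 38.6 CPM in WT replicates 1 to 5 and at 31.2, 29.9, 32.3, 32.8 and 23.5 CPM in cKO replicates 1 to 5. WT replicate 2 sat among the cKO animals, and cKO replicate 5 was below all others. The means were 36.7 ± 3.94 CPM in WT and 30.0 ± 3.78 CPM in cKO (SD, n = 5 each), and the log2 fold change of -0.29 ± 0.10 missed the threshold (edgeR adjusted p = 0.0505). It passed without WT replicate 2 (-0.36, edgeR adjusted p = 0.0143), with DESeq2 (-0.28, adjusted p = 0.0476) and with scaling by library size alone (-0.42, edgeR adjusted p = 0.0118). Slc39a8 lies on the plus strand of chr3:135825279-135888572.

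**Figure D2:**
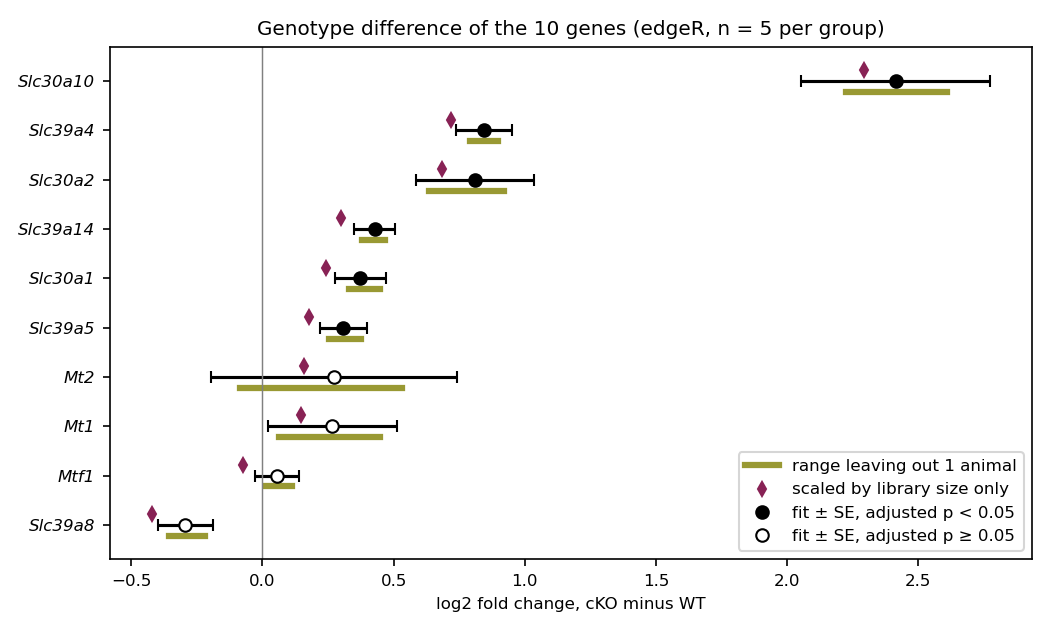
Log2 fold change of each gene, cKO minus WT, from edgeR (circles with SE, filled where the adjusted p was under 0.05), with the range of values when 1 animal is left out (olive bars) and the value with scaling by library size alone (diamonds). Slc30a10 stands apart at 2.41, Mt2 has the widest SE, 0.47, and Mtf1 lies near 0 with a diamond on the other side of it.

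The metallothioneins varied more between animals than between genotypes. Mt1 was at 60.6, 101.7, 70.9, 47.3 and 65.5 CPM in WT replicates 1 to 5 and at 57.8, 64.0, 83.7, 127 and 83.6 CPM in cKO replicates 1 to 5. Mt2 was at 29.1, 51.3, 39.7, 10.4 and 25.1 CPM in WT and at 16.4, 26.8, 39.7, 70.8 and 34.4 CPM in cKO, in the same order. WT replicate 2 and cKO replicate 4 were the highest of their groups for both genes, and WT replicate 4 and cKO replicate 1 were the lowest. The groups overlapped broadly.

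Mt1 had means of 69.2 ± 20.2 CPM in WT and 83.2 ± 27.05 CPM in cKO (SD, n = 5 each), and a log2 difference of 0.27 ± 0.25 with an edgeR adjusted p of 0.448. Mt2 had means of 31.1 ± 15.4 and 37.6 ± 20.5 CPM, a log2 fold change of 0.27 ± 0.47 and an edgeR adjusted p of 0.692. The standard errors leave room for a difference in either direction for both genes. Single animals moved both values. The log2 fold change of Mt1 ran from 0.06 without cKO replicate 4 to 0.45 without WT replicate 2, and was 0.16 without WT replicate 4. That of Mt2 was -0.084, 0.53 and 0.05 without the same animals, and neither gene passed in any of these fits. The genes are neighbours on the plus strand, Mt2 at chr8:94172664-94173568 and Mt1 at chr8:94179082-94180327, with 5513 bases between the end of Mt2 and the start of Mt1. Summed over both, metallothionein mRNA ran from 185 to 443 TPM in WT and from 208 to 609 TPM in cKO. The ratio of Mt1 to Mt2 in TPM ran from 1.43 to 3.59 in WT and from 1.44 to 2.87 in cKO, highest in the animals with the lowest metallothionein sum, WT replicate 4 and cKO replicate 1.

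Metallothioneins also respond to glucocorticoids, to inflammation and to handling of tissue, so lists of such genes are set beside them. In cKO replicate 4, the library with the most metallothionein mRNA, the summed TPM of 7 glucocorticoid-responsive genes was 253, against 128 to 258 over all cKO libraries and 102 to 168 in WT. This list had 4 of 7 genes higher in cKO, against 15.6% of all genes. A list of immediate early and heat shock genes that mark dissociation stress summed to 131 TPM in cKO replicate 4, the highest of its group (65.4 to 131 in cKO, 87.9 to 305 in WT), and had 2 of 9 tested genes higher, against 15.6% of all genes. By edgeR 0 of the 9 were lower, although 6 had a negative sign and the median log2 fold change was -0.45, and 4 were lower at an unadjusted p under 0.05, 3 by DESeq2 and 0 by limma-voom. The acute phase list summed to 198 TPM in cKO replicate 4, the lowest of its group (198 to 1391 in cKO, 102.5 to 1169 in WT). By edgeR 0 of its 6 tested genes passed, with 1 higher at an unadjusted p under 0.05 and 0 by DESeq2 and limma-voom. Stromal markers in cKO replicate 4 summed to 58.3 TPM, the highest of the 10 libraries. The WT library with the most metallothionein mRNA, WT replicate 2 at 443 TPM, had other sums. Its glucocorticoid list summed to 134 TPM and its stromal markers to 19.3 TPM. Its dissociation list, at 87.9 TPM, was the lowest of WT and its acute phase list, at 1169 TPM, the highest. WT replicate 5 had 305 TPM of the dissociation list and 250 TPM of metallothionein mRNA. The part of any of these in the metallothionein levels was not tested.

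Mtf1, which encodes the sensor, varied little. It was at 30.1, 24.3, 22.9, 24.8 and 27.9 CPM in WT replicates 1 to 5 and at 25.5, 26.9, 25.7, 27.4 and 29.6 CPM in cKO replicates 1 to 5. All cKO animals fell inside the WT range. The means were 26.0 ± 2.91 and 27.02 ± 1.64 CPM (SD, n = 5 each), with a log2 fold change of 0.05 ± 0.08 and an edgeR adjusted p of 0.656, and the sign turned with scaling by library size alone (-0.075). Mtf1 lies on the plus strand of chr4:124802104-124849800 and overlaps the coding gene 1110065P20Rik on the opposite strand. Of 6 genes listed as MTF1 targets 2 rose, against 15.6% of all genes. They were Slc30a1 and the glutathione synthesis gene Gclc (Gclc by 0.23 on the log2 scale, edgeR adjusted p = 0.0115). Selenow differed by 0.15 on the log2 scale (edgeR adjusted p = 0.286), Mt1 and Mt2 are given above, and Slc39a10, which MTF1 represses, differed by -0.91 ± 0.40 (edgeR adjusted p = 0.114). The WT level of Slc39a10 ran from 9.20 to 38.1 CPM, with WT replicate 4 highest, and the cKO level from 4.79 to 13.6 CPM.

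Per gene length, in TPM, the order of levels was led by the metallothioneins in both genotypes. In WT the means were 196 for Mt1, 106 for Mt2, 70.0 for Slc39a5, 37.9 for Slc39a4, 34.3 for Slc39a14, 14.9 for Slc39a8, 11.6 for Slc30a2, 9.86 for Mtf1, 4.47 for Slc30a1 and 1.82 for Slc30a10. Of these neighbours, Slc39a5 and Slc39a4, Slc39a14 and Slc39a8, Mtf1 and Slc30a1, and Slc30a1 and Slc30a10 had ranges over 5 animals that did not touch. The other neighbours overlapped. In cKO the order was Mt1 at 223 TPM, Mt2 at 123, Slc39a5 at 81.5, Slc39a4 at 59.9, Slc39a14 at 42.3, Slc30a2 at 19.6, Slc39a8 at 11.2, Mtf1 at 9.56, Slc30a10 at 9.16 and Slc30a1 at 5.43. In this order Slc39a5 and Slc39a4, Slc39a14 and Slc30a2, and Slc30a2 and Slc39a8 had ranges apart. Slc30a10 was no longer last, although its range of 5.12 to 12.3 TPM in cKO overlapped those of Mtf1 and Slc30a1. Slc30a2 and Slc39a8 exchanged places. Their ranges overlapped in WT and were apart in cKO, at 14.0 to 30.4 and 8.66 to 13.2 TPM.

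**Figure D3:**
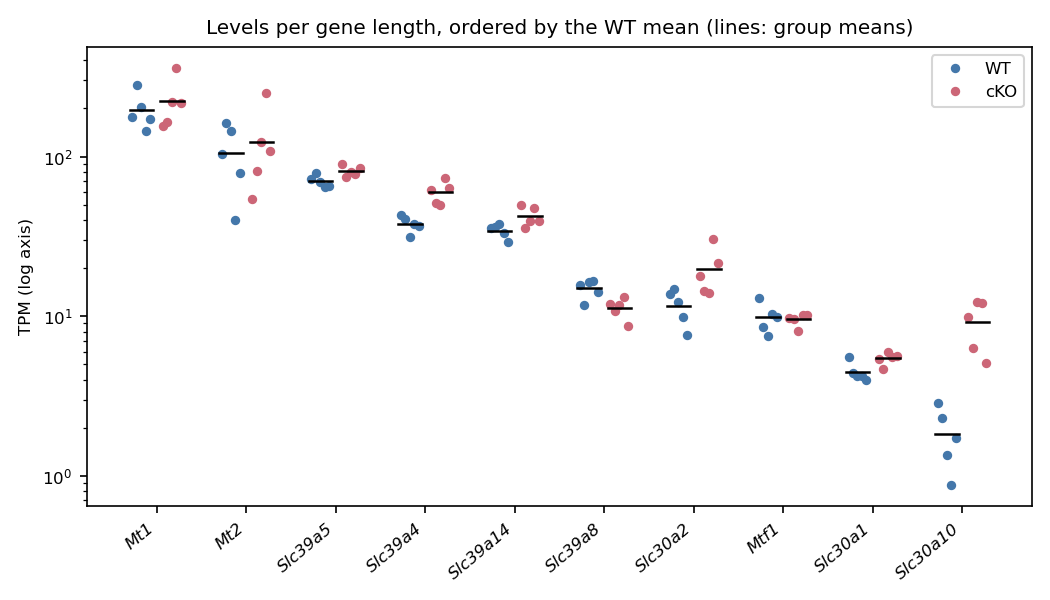
Deposited TPM of each gene on a log axis, ordered by the WT mean, with points for the 5 WT (blue) and 5 cKO (red) libraries and lines for group means. The metallothioneins lead both genotypes, at means of 196 and 223 TPM for Mt1, and Slc30a10 moved from 1.82 TPM, the lowest mean in WT, to 9.16 TPM in cKO.

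Because the markers of mature enterocytes differed between genotypes, the metal genes were set beside them. The list, with genes such as Alpi, Apoa1, Fabp1 and Sis, had 10 of 10 genes higher in cKO, against 15.6% of all genes. Their log2 fold changes ran from 1.32 to 2.06, with a median of 1.82, and no marker was at 0 in any library. The log2 fold change of Slc30a10 was larger than that of each of these 10 markers. The others of the 10 metal genes that rose were all below the smallest. Outside the 10 metal genes, Slc40a1, described further on, lay within the range of the markers at 1.91. Summed enterocyte TPM was 4975, 7895, 2324, 1540 and 3721 in WT replicates 1 to 5 and 11898, 11203, 7929, 15524 and 15456 in cKO replicates 1 to 5. The highest WT library and the lowest cKO library, WT replicate 2 and cKO replicate 3, were close to each other on this sum. In these libraries Slc30a10 was at 2.30 and 12.3 TPM, Slc39a4 at 40.7 and 49.4 TPM and Slc30a2 at 14.7 and 14.0 TPM. In this pair Slc30a10 was higher in the cKO animal and Slc30a2 was not, a comparison of 1 animal with 1 that has no test. For Slc30a10 the pair is an extreme one. Relative to the marker sum, WT replicate 2 had the least Slc30a10 of WT and cKO replicate 3 the most of cKO. Within WT, Slc30a10 was at 2.85, 2.30, 1.34, 0.87 and 1.72 TPM in replicates 1 to 5, lowest where the marker sum was lowest. In TPM too cKO replicate 3 had the most Slc30a10 of its group, and cKO replicate 5, with 15456 TPM of markers, had 5.12 TPM of Slc30a10.

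Per 1000 TPM of enterocyte markers, a measure chosen after the values were seen, Slc30a10 ran from 0.291 to 0.577 TPM in WT and from 0.331 to 1.54 TPM in cKO. The groups overlapped, with cKO replicate 5 (0.331) inside the WT range. Slc39a4 ran from 5.16 to 24.4 in WT and from 4.09 to 6.23 in cKO. The marker sums did not overlap between the groups, so a gene of equal TPM in all libraries is lower in cKO on this measure. Slc39a8, Mt1, Mt2 and Mtf1, which did not pass the test, were thus lower in every cKO library than in every WT library. The share of all genes for which this holds was not computed, so no result about these genes is drawn from it. The part of enterocyte content in the level of any metal gene was not tested. Of the other markers, 2 of 6 enteroendocrine genes, 2 of 4 tuft cell genes and 1 of 5 epithelial genes were higher in cKO, and 1 of 10 immune genes and 2 of 7 stromal genes were lower, against 15.6% of all genes higher and 12.7% lower. Among goblet cell genes 0 of 7 passed by edgeR, with 1 higher and 2 lower at an unadjusted p under 0.05 and 1 higher by DESeq2 and 0 by limma-voom. Of the 2 erythroid genes tested 0 passed by edgeR, with 1 lower at an unadjusted p under 0.05, 1 lower by DESeq2 and 0 by limma-voom.

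**Figure D4:**
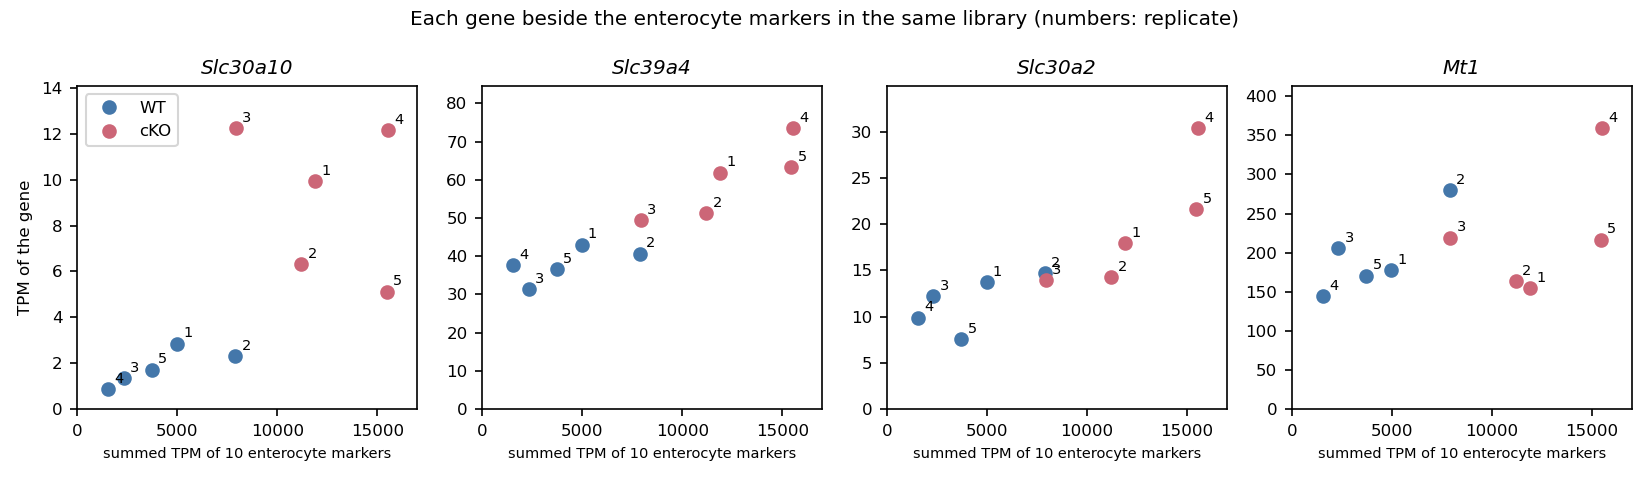
TPM of Slc30a10, Slc39a4, Slc30a2 and Mt1 (vertical axes) against the summed TPM of 10 enterocyte markers in the same library (horizontal axes), with each point numbered by replicate and coloured blue for WT and red for cKO. At nearly equal marker sums Slc30a10 stood at 12.3 TPM in cKO replicate 3 and at 2.30 TPM in WT replicate 2. Relative to the marker sum these were the highest cKO library and the lowest WT library. In cKO replicate 5, with 15456 TPM of markers, Slc30a10 stood at 5.12 TPM.

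The rest of the pathway was described from a list of 31 genes, 19 for zinc and 12 for manganese, of which 26 were tested. In cKO 9 of the 26 (34.6%) rose, against 15.6% of all genes, on a list also chosen with earlier results of these data known. By edgeR 0 fell, with 2 lower at an unadjusted p under 0.05, and 0 fell by DESeq2 and limma-voom. Among the zinc transporters 5 of 14 rose, with a median log2 fold change of 0.05 over the 14. Slc30a4, which fills vesicles with zinc, had the largest difference among the 5 that rose, from 62.8 ± 9.002 CPM in WT to 105 ± 13.8 CPM in cKO (SD, n = 5 each), with a log2 fold change of 0.74 ± 0.11 and an edgeR adjusted p of 0.00114. Its values ran from 51.4 to 72.9 CPM in WT and from 93.8 to 129 CPM in cKO, without overlap.

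Slc30a5 and Slc30a6, which form a complex that supplies zinc to enzymes of the secretory pathway, rose by 0.38 and 0.30 on the log2 scale (edgeR adjusted p = 0.00181 and 0.011). Slc39a9 rose by 0.34 and Slc30a9, a transporter of mitochondria, by 0.21 (edgeR adjusted p = 0.00186 and 0.0172). Their differences were all smaller than that of Slc30a4. Slc30a3, Slc30a8, Slc39a12, Mt3 and Mt4 did not pass the filter on low counts. Slc39a12 had 0 counts in all 10 libraries, which allows up to 3 counts per library, or 0.111 CPM at the smallest library. Mt3 had 2 to 7 counts per library and Mt4 at most 1, so that Mt1 and Mt2 made up nearly all metallothionein mRNA.

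Among the 12 genes of manganese transport and manganese enzymes 4 rose, against 15.6% of all genes, and the median log2 fold change was 0.12. Slc40a1 (ferroportin), the exporter of iron that has also been reported to carry manganese, was at 34.4, 33.1, 41.5, 26.5 and 40.1 CPM in WT replicates 1 to 5 and at 188, 89.6, 202, 126 and 53.4 CPM in cKO replicates 1 to 5. Its groups did not overlap, and cKO replicate 5 was the lowest of its group and cKO replicate 3 the highest, as for Slc30a10. Slc40a1 had a log2 fold change of 1.91 ± 0.35 (edgeR adjusted p = 0.00492). Slc11a2 (DMT1), the apical importer of iron that also takes manganese, rose from 45.5 ± 2.39 to 71.6 ± 19.1 CPM (SD, n = 5 each), by 0.66 ± 0.15 on the log2 scale (edgeR adjusted p = 0.00897), without overlap. The manganese-dependent enzyme arginase encoded by Arg2 rose by 1.08 ± 0.18 and the pyruvate carboxylase gene Pcx by 0.59 ± 0.10 (edgeR adjusted p = 0.00232 and 0.00206).

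Arg2 had the highest level of the 31 genes, with a mean of 262 TPM in WT and 523 TPM in cKO. Sod2, the manganese superoxide dismutase of mitochondria, and Glul, the manganese-dependent glutamine synthetase, came next. Neither passed, at log2 fold changes of 0.15 and -0.23 (edgeR adjusted p = 0.149 and 0.187).

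**Figure D5:**
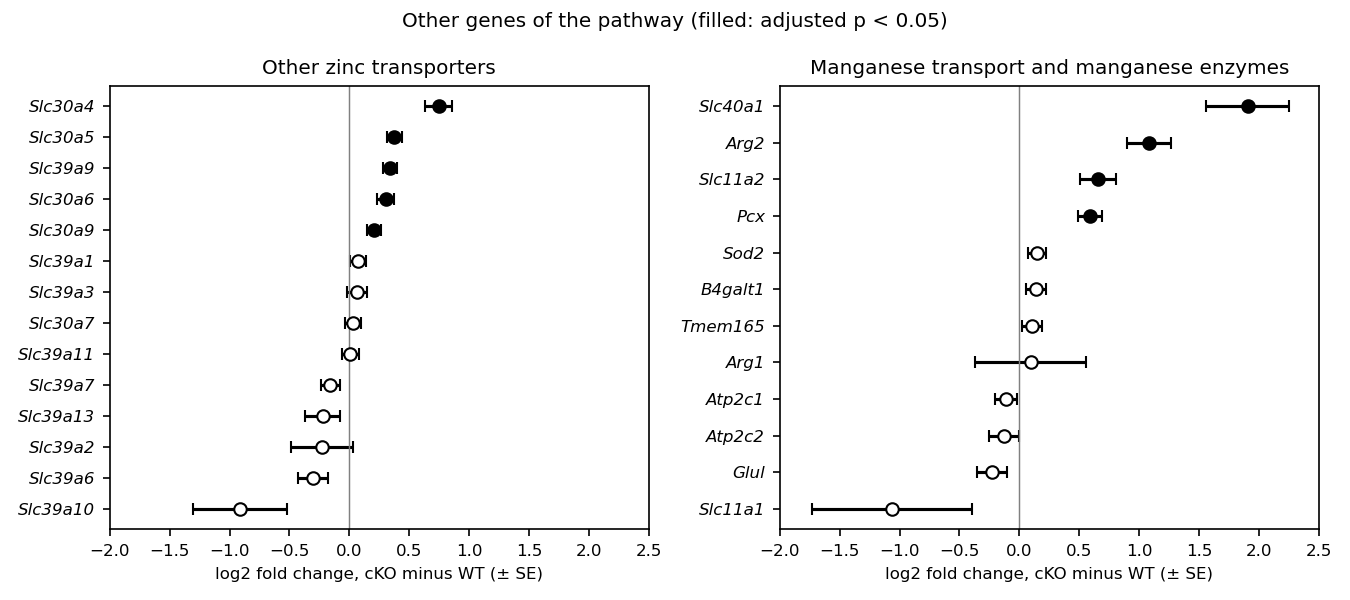
Log2 fold change, cKO minus WT, with SE from edgeR for the 14 tested zinc transporters outside the 10 genes (left) and the 12 genes of manganese transport and manganese enzymes (right), filled where the adjusted p was under 0.05. Slc30a4 at 0.74 and Slc40a1 at 1.91 head the panels, and no filled point lies below 0.

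Genes with the profile most like that of Slc30a10 over the 10 libraries were Slc19a3, Otop3, Sult6b2, Slc37a2 and Tmprss15. The measure was the root mean square difference of log2 CPM after each gene was centred on its own mean, and it ran from 0.279 for Slc19a3 to 0.345 for Tmprss15. For Slc39a4 the nearest genes were Epha1, Rab11fip3, Nat8f1, Phyh and Igsf23, at 0.0663 to 0.0899. For Mt1 they were 0610009L18Rik, Igfbp3, Spata2l, Pkd2l2 and Gm49749, at 0.2 to 0.239, and Mt2 was not among them. The measure also counts the size of swings. On the log2 scale these were wider for Mt2 (10.4 to 70.8 CPM) than for Mt1 (47.3 to 127 CPM). Both metallothioneins had the same highest and lowest animals in each group. Depth and marker sums differed between the genotypes in these libraries, and likeness describes these 10 libraries only.

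Transcripts of the HNF4 factors were read because Slc30a10 has been described as an HNF4 target. Hnf4g rose from 99.4 ± 17.2 to 206 ± 40.4 CPM (SD, n = 5 each), with a log2 fold change of 1.05 ± 0.14 and an edgeR adjusted p of 9.26e-04. Hnf4a, with the far higher count of the pair, averaged 1151 ± 68.2 and 1040 ± 44.3 CPM in WT and cKO, with a log2 fold change of -0.15 ± 0.07 (edgeR adjusted p = 0.12). Of the 6 intestinal identity factors listed 1 rose, a share close to the 15.6% of all genes. Cdx2 and Gata4 had log2 fold changes of -0.07 and 0.0019 and did not pass. By edgeR 0 of the 6 fell, with 1 lower at an unadjusted p under 0.05 (Hnf4a) and 0 lower by DESeq2 and limma-voom. Binding of HNF4 at Slc30a10 was not measured in these libraries.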

How the data were processed

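RNA of jejunal crypts was sequenced from 5 WT and 5 Arid3a cKO mice, and samples were grouped by the genotype in their labels, 1 library per animal, so that p-values measure the spread between these animals. The authors aligned reads with STAR and quantified genes with RSEM, both run through nf-core/rnaseq on the Ensembl GRCm38 annotation, and deposited expected counts, TPM, FPKM and effective lengths for each library, without a filter or normalization between libraries. RSEM divides reads that match several genes, and the deposited expected counts were rounded to whole numbers here. Deposited TPM values were used for levels between genes, and FPKM was not used. The strand setting is not given in the sources used here.

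The analysis used edgeR 4.0.16 under R 4.3.3. After filterByExpr (minimum count 10, minimum total 15) and TMM normalization, the effect of genotype was tested with robust glmQLFit and glmQLFTest and Benjamini-Hochberg adjustment over 14719 genes at a threshold of 0.05. Fold changes in TPM are on the log2(value + pseudocount) scale. Totals of 27050455 to 31053622 counts put 3 counts, the limit that a count of 0 allows, at 0.0966 to 0.111 CPM, and such limits cover counting error only. Pairs of libraries within a group differed by 14.5 times or more the chi-square per degree of freedom of sampling noise, so none was deposited in duplicate. Genes without a symbol held 0.0193% of counts.

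The 10 genes and all lists were chosen with earlier results of these data known. Named genes were Arid3a, the 10 genes, the other zinc and manganese genes past the threshold or among the 3 highest in TPM, the genes of the MTF1 target and intestinal identity factor lists, and the 5 genes most like Slc30a10, Mt1 and Slc39a4. A few members of these lists entered every count and test but are not reported by name. Other genes are named after their values were seen or for their absence. Gene positions came from the GENCODE annotation of GRCm38 and promoter sequences from RefSeq. Alternatives were DESeq2 1.42.0, limma 3.58.1 (voom on counts, and log2 TPM with pseudocounts of 1 and 0.1), RLE factors, library size only, other count filters, unrounded counts, the effective length as an offset, the replicate number as a block and leaving out each animal. The test was checked on simulated data.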

Additional observations from a re-analysis of the deposited data

How the results depend on the processing

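Each result was computed under 21 alternatives, 10 of which left out 1 animal. Of the 210 values for the 10 genes 185 kept their direction and their side of the threshold, and Slc30a10 (1.83 to 2.61) and Slc39a4 (0.64 to 0.90) kept both in all 21. With library size alone Slc30a1 was 0.24 and Slc39a5 0.18, both no longer past the threshold, Slc39a8 passed at -0.42, Mtf1 turned to -0.075, and 4030 genes of all and 3 of the other zinc and manganese genes were lower. In limma on TPM with pseudocounts of 1 and 0.1, Slc30a1 (0.24 and 0.28) and Slc39a14 (0.29 and 0.30) no longer passed, Slc39a8 passed (-0.38 and -0.41), Mtf1 turned (-0.024 and -0.025), 1420 and 1405 genes were higher, and 2 of the other metal genes were lower in each. Slc39a8 also passed with DESeq2 (-0.28) and with at least 10 counts in every library (-0.29), and Slc30a2 did not pass without a filter (0.82). Leaving out 1 animal gave 0.63 to 0.92 for Slc30a2, 0.25 to 0.38 for Slc39a5, -0.36 to -0.22 for Slc39a8, -0.084 (without cKO replicate 4) to 0.53 for Mt2, 1131 to 2112 genes lower in cKO and 0 to 1 of the other metal genes lower. The cause of these changes was not tested.

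No sign of pairing by replicate number was seen in expression, which cannot show whether the animals were matched by design. Deviations of animals with the same number correlated between -0.212 and 0.0947 over genes, and 0 of 5 WT animals correlated best with its own number. With the replicate block Slc30a2 was 0.79 (edgeR adjusted p = 0.121), 1191 genes were lower, 1 of the other metal genes was lower, and the other 9 genes kept their call. Depth limits only the rarest genes here, Mt3, Mt4 and Slc39a12 among them.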
